A study of Mus musculus with 19 samples.

Results

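The comparison described here is that of oral SAHA with its vehicle in the hippocampal CA1 subregion of mice aged 20 months, by small RNA sequencing. It took the 6 libraries labelled as aged and given SAHA and the 5 libraries labelled as aged and given vehicle, which are 11 of the 19 libraries of the series. The other 8 came from vehicle-treated mice of 3 months and were fitted together with them, for the estimate of the spread, the filter on low counts and the values by age at the end. All animals were wild type, of the strain labelled C57B/6JRj. The drinking water of the SAHA group contained 0.67 g SAHA and 18 g cyclodextrin per L, and that of the vehicle groups the cyclodextrin alone. Both aged groups were treated for 4 weeks, so cyclodextrin was common to them. CA1 was dissected as tissue, and the libraries therefore mix neurons with glia and vessel cells. The labels give no sex or batch and do not say whether a library is 1 animal, so the p-values measure the spread between these libraries.

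SAHA (suberoylanilide hydroxamic acid, vorinostat) inhibits histone deacetylases, enzymes that remove acetyl groups from histone tails, and such inhibitors are known to raise histone acetylation and to alter transcription in the brain. A microRNA (miRNA) is cut from a hairpin precursor whose left and right strands give the 5p and 3p arms. Usually the major arm is loaded into an Argonaute protein and the other is degraded. Bases 2 to 8 of the mature strand, the seed, pair with target messenger RNAs, so miRNAs with the same seed share many predicted targets.

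The results below turn on the following mature sequences, taken from RefSeq for GRCm38.p6 and written 5′ to 3′ with the seed in capitals. A first set is of miRNAs called between the groups that are alone under their seed among the names with a sequence.
miR-345-3p: cCUGAACUaggggucuggagac
miR-128-3p: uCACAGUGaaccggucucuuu
miR-485-3p: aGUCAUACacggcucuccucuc
miR-673-5p: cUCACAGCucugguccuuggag
let-7d-3p: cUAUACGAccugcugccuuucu
miR-9-3p: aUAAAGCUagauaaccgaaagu
miR-127-3p: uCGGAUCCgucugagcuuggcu
miR-1839-5p: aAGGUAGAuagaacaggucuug
The other set is of called miRNAs each shown directly above another miRNA with the same seed, because summing over the seed changes what is seen for several of them.
let-7d-5p: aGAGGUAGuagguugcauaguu
let-7a-5p: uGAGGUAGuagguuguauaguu
miR-148b-5p: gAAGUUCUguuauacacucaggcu
miR-148a-5p: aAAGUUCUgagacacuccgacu
miR-222-3p: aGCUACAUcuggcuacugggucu
miR-221-3p: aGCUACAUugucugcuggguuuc
miR-379-3p: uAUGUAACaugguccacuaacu
miR-411-3p: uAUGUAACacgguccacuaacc
miR-106b-5p: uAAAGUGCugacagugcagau
miR-93-5p: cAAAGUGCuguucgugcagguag
miR-181c-5p: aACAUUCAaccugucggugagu
miR-181a-5p: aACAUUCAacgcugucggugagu
Read side by side from the 5′ end, let-7d-5p and let-7a-5p were identical at 20 of 22 positions, and so were miR-379-3p and miR-411-3p, so that reads with an error or a trimmed end could be split between them. The same holds for miR-181c-5p, which has the sequence of miR-181a-5p with an internal g missing. The treatment of reads that match several miRNAs is unknown. A mature sequence was matched for 19 of the 22 called miRNAs, and miR-301b-3p, miR-1a-3p and miR-496-3p are named only.

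Total miRNA counts ranged from 4642434 to 5249168 in the vehicle libraries of this age and from 4211365 to 5410804 in those given SAHA, with 700 to 712 and 702 to 734 miRNAs detected. Reads carried no molecular identifiers, so a count is not a count of molecules. Aged SAHA 1 stood apart from its group, with a root mean square deviation from the group mean of 0.381 on the log2 scale against 0.243 to 0.293 in the other 5. Several of the results that rest on it are given without it as well. The markers of neurons were present at 70309 to 87706 CPM (counts relative to the TMM-scaled library size) in the aged libraries, as a sum over 13 mature miRNAs, while the liver miRNAs miR-122-5p and miR-122-3p summed to at most 1.44 CPM. In tissue libraries of this kind, fewer cells of a type and less RNA per cell cannot be told apart.

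Of 509 miRNAs tested, 6 were higher and 16 lower with SAHA at an adjusted p under 0.05 (edgeR quasi-likelihood test, Benjamini-Hochberg), which is 1.18% and 3.14% of those tested, or 4.32% in both directions. Changes were small, with 5 calls over 1.5-fold, and the median log2 fold change of all tested miRNAs was -0.01. The 5 vehicle and 6 SAHA libraries did not overlap in 16 of the 22 calls, against 25 of the 509 tested (4.91%). All treated libraries lay below all vehicle libraries in 13 of the 16 falls and 3.34% of those tested, and above them in 3 of the 6 rises and 1.57% of those tested. The falls were mostly of 3p arms, 11 of 16, and the rises mostly of 5p arms, 5 of 6, whereas the tested miRNAs were 239 5p arms, 256 3p arms and 14 without an arm in the name. The calls kept in all 11 fits that left out a library and in all other settings tried numbered 10, namely miR-345-3p, miR-301b-3p, miR-148b-5p, miR-128-3p, miR-379-3p, miR-485-3p, miR-222-3p, miR-673-5p, let-7d-5p and let-7d-3p. Fitting only the 11 compared libraries left 491 miRNAs tested and 16 called, all among the 22, and ended the calls of miR-1193-3p, miR-153-5p, miR-127-3p, miR-9-3p, miR-496-3p and miR-1983. Leaving out aged SAHA 1 and 3 together kept 15 of the 22 and ended those of miR-1193-3p, miR-153-5p, miR-127-3p, miR-409-5p, miR-496-3p, miR-1a-3p and miR-1983. Leaving out aged vehicle 1 gave 13 calls, aged vehicle 3 gave 14, aged SAHA 6 gave 11 and aged SAHA 1 gave 33. The split of higher against lower calls moved with the scaling and the tool, from 6 and 16 to 10 and 16 when edgeR used the size factors of DESeq2, 11 and 16 when it used unscaled totals, 20 and 19 with DESeq2 and 20 and 26 with limma-voom.

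**Figure D1:**
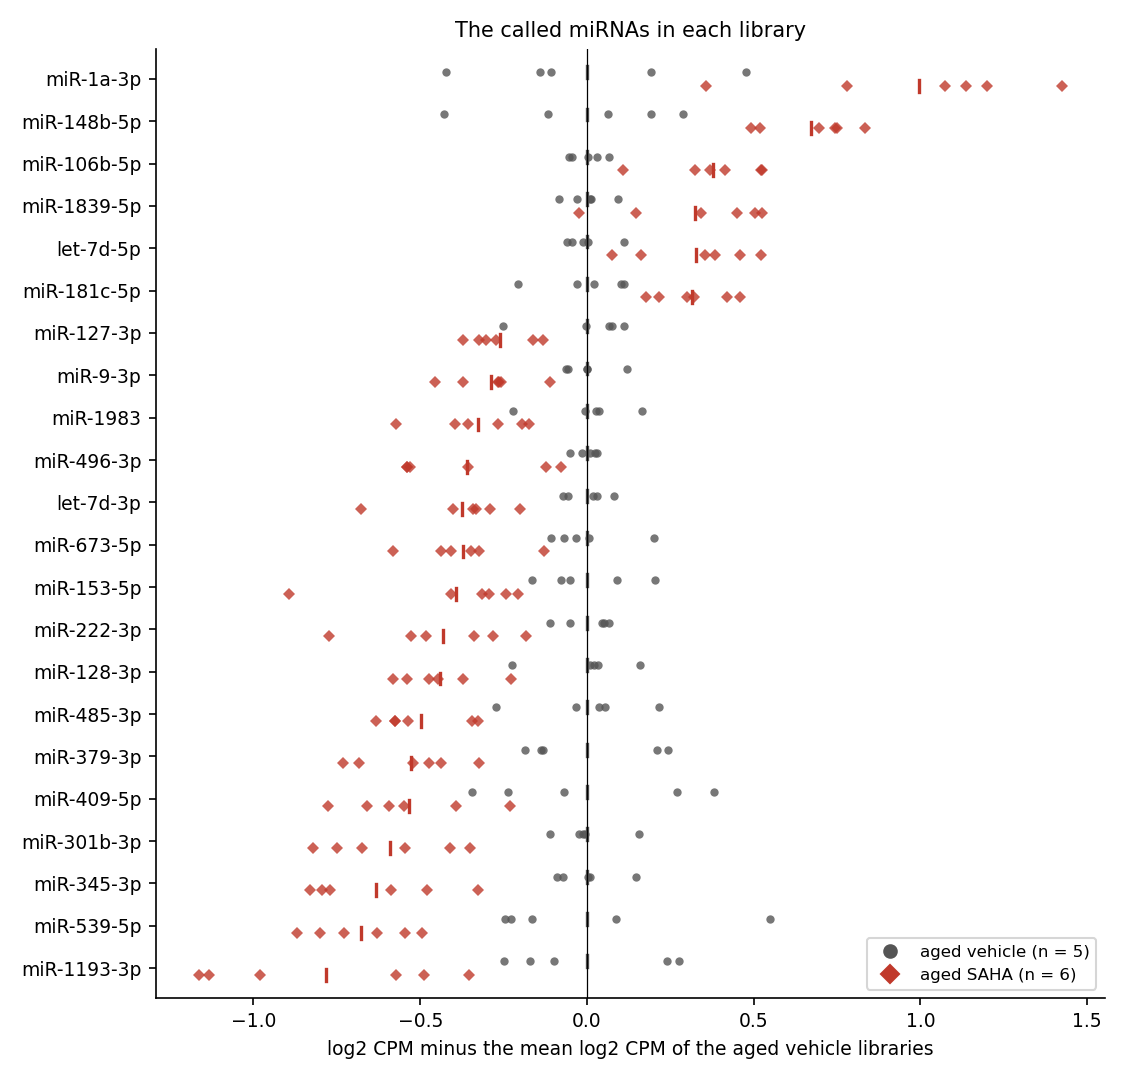
Each row is a called miRNA, and the horizontal axis is log2 CPM minus the mean log2 CPM of the 5 aged vehicle libraries. Circles are aged vehicle libraries, diamonds the 6 aged SAHA libraries and short bars the group means. The 6 higher miRNAs stand at the top and the 16 lower ones below, and groups overlap in 6 of the 22 rows.

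The brain-enriched miRNAs miR-128-3p and miR-9-3p fell. miR-128-3p, which is abundant in neurons and comes from an intron of R3hdm1 (chr1:128202361-128202430, plus strand, GRCm38) and an intron of Arpp21 (chr9:112118636-112118711, minus strand), had 34685, 29478, 34910, 38444 and 35248 CPM in the vehicle libraries. In the SAHA libraries it ranged from 22994 to 29379 CPM with a median of 25009. The highest SAHA library lay just under the lowest vehicle library, and the fitted level was 26.4% lower (log2 fold change -0.44, SE 0.08, edgeR adjusted p = 0.0034). miR-9-3p, the minor arm of a neural miRNA with precursors on 3 chromosomes, had 794, 826, 898, 825 and 790.4 CPM with vehicle and 603 to 765 CPM with SAHA, a median of 687. Here too all SAHA libraries were below all vehicle libraries (log2 fold change -0.28, SE 0.07, edgeR adjusted p = 0.018). Leaving out aged vehicle 3 or aged SAHA 6 ended this call (adjusted p up to 0.053), as did fitting only the compared libraries (adjusted p 0.054). The major arm miR-9-5p had 39102 ± 2190 CPM with vehicle (SD, n = 5) and 36335 ± 2023 with SAHA (n = 6), and its ranges overlapped (log2 fold change -0.11).

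miR-153-5p, the minor arm of a neuronal miRNA in an intron of Ptprn2 (chr12:117250817-117250885, plus strand), had 82.5, 92.7, 100.2, 77.6 and 84.0 CPM with vehicle. With SAHA it had 46.9 to 75.5 CPM, a median of 70.5, and the lowest value was that of aged SAHA 6. The groups did not overlap, but the call (edgeR adjusted p = 0.037) was lost in 6 of the 11 fits that left out a library: aged vehicle 1, 2, 3 or 5, or aged SAHA 3 or 6, with adjusted p up to 0.12. Its major arm miR-153-3p was not called, at 3584 ± 254 CPM with vehicle and 3129 ± 416 with SAHA (log2 fold change -0.20).

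let-7d, a member of the let-7 family of developmental timing miRNAs, had arms that moved in opposite directions. let-7d-5p had 1803, 1885, 1823, 2032 and 1862 CPM with vehicle and 1981 to 2698 CPM with SAHA, a median of 2426. Aged SAHA 1 was the 1 treated library that lay within the vehicle range, and the level was 1.26-fold higher (log2 fold change 0.33, SE 0.07, edgeR adjusted p = 0.0094). let-7d-3p had 695, 739, 765, 688 and 733 CPM with vehicle and 452 to 629 CPM with SAHA, a median of 573. Every treated library was below every vehicle library, and the level was 22.5% lower (log2 fold change -0.37, SE 0.08, edgeR adjusted p = 0.012). The precursor lies in an exon of the long noncoding gene 6720427I07Rik (chr13:48536012-48536114, minus strand).

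The fall with the smallest p was that of miR-345-3p, a miRNA of low abundance whose precursor overlaps an exon of Slc25a47 (chr12:108836973-108837068, plus strand). It had 40.5, 44.7, 40.7, 38.4 and 38.0 CPM with vehicle and 22.7 to 32.2 CPM with SAHA, a median of 25.3. The gap between the groups was clear of both ranges (log2 fold change -0.62, SE 0.11, edgeR adjusted p = 0.0020). Its 5p arm was not called, with 37.1 ± 4.09 CPM with vehicle and 42.3 ± 1.38 with SAHA (log2 fold change 0.19). miR-301b-3p, of the miR-130 and miR-301 family that pairs through a shared seed, had 31.7, 28.0, 28.2, 28.3 and 26.3 CPM with vehicle. With SAHA it had 16.1 to 22.3 CPM, a median of 18.7, again with no overlap (log2 fold change -0.58, SE 0.10, edgeR adjusted p = 0.0020). miR-222-3p, known as a repressor of the cell cycle inhibitor Cdkn1b, is X-linked and intergenic (chrX:19146893-19146971, minus strand). It had 3508, 3286, 3559, 3525 and 3149 CPM with vehicle and 1990.4 to 2998 CPM with SAHA, a median of 2563. All treated libraries were lower, and the lowest was aged SAHA 1 (log2 fold change -0.42, SE 0.09, edgeR adjusted p = 0.0094). Its cluster partner miR-221-3p was not called, at 1273 ± 68.8 CPM with vehicle and 1176 ± 211 with SAHA, with a log2 fold change of -0.11 that became 0.04 without aged SAHA 1 and 3.

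Of the 16 falls, 8 were of miRNAs in the Dlk1-Dio3 imprinted region of chromosome 12, whose miRNAs are transcribed from the maternal allele and are abundant in brain. They were 8 of 80 tested members (10%) and none of the 80 rose, against 3.14% lower and 1.18% higher over all tested, while the median of the 80 was 0.01 and 38 of them had negative values. Without aged vehicle 1, aged vehicle 4, aged SAHA 3 or aged SAHA 6 the count lower was 4, namely miR-379-3p, miR-485-3p, miR-539-5p and miR-673-5p. Without aged SAHA 1 it was 7 lower and 1 higher, and without aged SAHA 1 and 3 it was 4 lower and 1 higher, the higher one being miR-369-5p in both. By stretch, 1 of 14 tested on the Meg3 side was lower, 1 of 10 antisense to Rtl1, and 6 of 56 between miR-379 and miR-410. miR-379-3p (precursor chr12:109709060-109709125, plus strand) had 216, 160.2, 211, 165 and 166 CPM with vehicle and 110 to 145 CPM with SAHA, a median of 129. miR-485-3p (chr12:109734902-109734974, in an exon of Mirg) had 139, 118, 146, 165 and 148 CPM with vehicle and 91.7 to 113 CPM with SAHA, a median of 96.8. Neither pair of groups overlapped, with log2 fold changes of -0.53 (SE 0.11, edgeR adjusted p = 0.0042) and -0.50 (SE 0.10, edgeR adjusted p = 0.0044). miR-673-5p, on the Meg3 side, had 430.4, 348, 376, 366 and 357 CPM with vehicle and 249.8 to 342 CPM with SAHA, a median of 288, and its groups did not overlap (log2 fold change -0.37).

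The other falls in this region were less secure. miR-127-3p, processed from the transcript antisense to Rtl1 and among the most abundant miRNAs here, had 153788, 119740, 142137, 150156 and 149047 CPM with vehicle. With SAHA it had 110073 to 129991 CPM, a median of 116602. The groups overlapped through aged vehicle 2, which lay within the SAHA range (log2 fold change -0.26, SE 0.07, edgeR adjusted p = 0.022). The call was lost without vehicle library 1, 4 or 5 or SAHA library 3 or 6, with adjusted p up to 0.079. miR-409-5p, at 159 ± 35.1 CPM with vehicle and 109 ± 15.03 with SAHA, overlapped through aged SAHA 2 and was lost without vehicle library 1 or 4 or SAHA library 3 or 6 (adjusted p up to 0.085). miR-496-3p, at 135 ± 3.07 against 106 ± 16.2 CPM, did not overlap and was kept without aged SAHA 2 or 5 but lost without any of the other 9 libraries (adjusted p up to 0.079). miR-539-5p and miR-1193-3p were near the low end of what was tested, at 8.85 ± 2.26 against 5.43 ± 0.55 CPM and 5.19 ± 0.88 against 3.06 ± 0.74 CPM. Their log2 fold changes of -0.70 (SE 0.17) and -0.76 (SE 0.21) were the most negative of the calls. The call of miR-539-5p was lost without aged vehicle 3 (adjusted p 0.053). That of miR-1193-3p was lost without any of 7 libraries, aged vehicle 1, 2, 3 or 4 or aged SAHA 2, 3 or 6 (adjusted p up to 0.14). The fall outside these groups was that of miR-1983, a tRNA-derived sequence, at 80.6 ± 7.59 against 64.3 ± 6.47 CPM, which was lost without vehicle library 1, 3 or 5 or SAHA library 3 or 6 (adjusted p up to 0.074).

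Among the rises, miR-148b-5p was the one with the smallest p. It is the minor arm of a precursor in an intron of Copz1 (chr15:103285125-103285221, plus strand), and it had 19.6, 15.8, 22.2, 24.2 and 25.9 CPM with vehicle. With SAHA it had 29.9 to 37.9 CPM, a median of 34.96, so every treated library was above every vehicle library (1.57-fold, log2 fold change 0.65, SE 0.12, edgeR adjusted p = 0.0020). The major arm miR-148b-3p was at 923 ± 49.7 CPM with vehicle and 916 ± 96.2 CPM with SAHA, a log2 difference of -0.01 with an SE of 0.08. miR-106b-5p, of the oncogenic miR-17 family and encoded in an intron of Mcm7 (chr5:138165737-138165818, minus strand), had 27.8, 25.6, 25.7, 26.6 and 27.1 CPM with vehicle. With SAHA it had 28.6 to 38.2 CPM, a median of 34.8, without overlap (log2 fold change 0.38, SE 0.09, edgeR adjusted p = 0.018), and the call was lost without aged vehicle 3 or aged SAHA 6 (adjusted p up to 0.053). miR-181c-5p had 3355, 4180.3, 3789, 3926 and 4153 CPM with vehicle and 4370.3 to 5316 CPM with SAHA, a median of 4800.4. The groups did not overlap (log2 fold change 0.31, SE 0.08, edgeR adjusted p = 0.018), and the call was lost without aged vehicle 1 or aged SAHA 6 (adjusted p up to 0.074). miR-181a-5p, from which it differs only by a missing g, had means of 122006 CPM with vehicle and 144520 CPM with SAHA. The part of miR-181a-5p reads in the rise of miR-181c-5p was not tested.

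The other 2 rises overlapped between the groups. miR-1839-5p, a miRNA of noncanonical origin, had 525, 509.9, 491, 555 and 524 CPM with vehicle and 512 to 749 CPM with SAHA, a median of 685. Aged SAHA 1 lay within the vehicle range (log2 fold change 0.34, SE 0.09, edgeR adjusted p = 0.027), and leaving out aged vehicle 1 or 3 or aged SAHA 2, 5 or 6 ended the call (adjusted p up to 0.074). miR-1a-3p, the defining miRNA of striated muscle, had 3.13, 4.79, 3.94, 2.57 and 3.20 CPM with vehicle and 4.41 to 9.25 CPM with SAHA, a median of 7.42. It showed the largest called change, 1.99-fold (log2 fold change 0.99, SE 0.25, edgeR adjusted p = 0.022), on 301 reads over the 11 libraries, and was lost without aged vehicle 1, 3, 4 or 5 or aged SAHA 6 (adjusted p up to 0.076). It was also lost without aged SAHA 1 and 3 together (adjusted p 0.083), which had the highest levels, 9.25 and 7.92 CPM. The 9 muscle markers summed to 69.9 to 106 CPM with vehicle and 86.3 to 136 CPM with SAHA, and 4 of them (miR-1a-1-5p, miR-1a-2-5p, miR-133b-5p and miR-206-5p) were at 0 in all 11 libraries. miR-133a-3p, which made up most of that sum, had a log2 fold change of 0.33 and was not called, and the part of muscle RNA in the rise of miR-1a-3p was not tested.

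Just outside the threshold stood 3 miRNAs with higher values. miR-339-5p had 20.1, 23.2, 21.8, 22.1 and 21.6 CPM with vehicle and 24.6 to 29.7 CPM with SAHA, with no overlap (log2 fold change 0.31, edgeR adjusted p = 0.055). miR-320-3p ranged from 133 to 155 CPM with vehicle and from 152 to 218 with SAHA (log2 fold change 0.30, edgeR adjusted p = 0.055). miR-24-2-5p had 82.4 ± 7.97 CPM with vehicle and 109.8 ± 19.5 with SAHA, where 148.5 CPM in aged SAHA 1 lay above the 95.5 to 108 CPM of the other 5 (log2 fold change 0.41, edgeR adjusted p = 0.057). With each library left out, its log2 fold change was 0.31 to 0.46. Of the other abundant miRNAs, miR-181a-5p ranged from 112923 to 130931 CPM with vehicle and from 113238 to 163893 with SAHA (log2 fold change 0.24), and miR-26a-5p from 72393 to 78502 and from 68231 to 81925 (log2 fold change 0.05). Neither was called.

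A shift between the arms of one precursor can be read within each library without any scaling, as the log2 ratio of its 5p to its 3p counts. Among 121 precursors with both arms at a mean of at least 20 counts in the aged libraries, the ratio was higher with SAHA in 22 (18.2%) and lower in 1 (0.826%), by limma with Benjamini-Hochberg adjustment at 0.05. The difference was positive in 73 of the 121 and negative in 48, with a median of 0.07. The 22 were not a class of precursors by dominant arm, since 5p was the major arm in 11 of them and 3p in 11, against 66 and 55 of all tested. In 18 of the 22 the 5p arm had a positive and the 3p arm a negative log2 fold change, in 3 both were positive and in 1 both were negative. The 22 were chosen for a higher 5p/3p ratio, which itself favours such opposite signs. Neither arm was itself called in 12 of the 22, so that the ratio picks up precursors that the test of single miRNAs did not. The groups did not overlap in 9 of the 22, against 11 of the 121 tested (9.09%). By an exact permutation test over the aged libraries, the largest p among the 22 was 0.056.

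**Figure D2:**
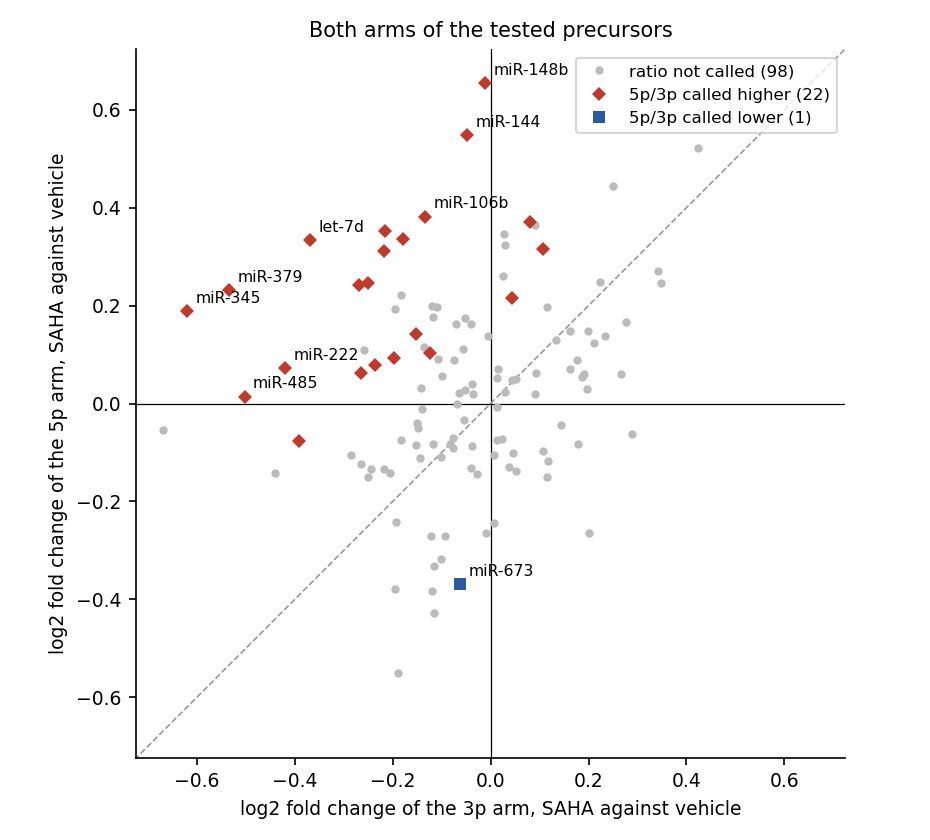
Each point is a precursor, with the log2 fold change of its 3p arm on the horizontal axis and of its 5p arm on the vertical axis, SAHA against vehicle. Red diamonds are the 22 precursors with a higher 5p/3p ratio, the blue square is miR-673, grey points are the 98 others, and the dashed line marks equal change of both arms. Most diamonds lie in the upper left, where the 5p arm is higher and the 3p arm lower, a place that choosing on the ratio favours.

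miR-345 had the clearest shift. Its log2 5p/3p ratio was -0.17, -0.38, 0.00, -0.24 and 0.15 in the vehicle libraries and 0.41 to 0.90 in the SAHA libraries, with a median of 0.72. The 5p arm made up 47.8% of the reads of this precursor with vehicle and 61.9% with SAHA (log2 difference 0.82, SE 0.14, limma adjusted p = 0.00042, exact permutation p = 0.0022, the smallest that 5 against 6 libraries can give). For let-7d the ratio was 1.37, 1.35, 1.252, 1.56 and 1.35 with vehicle and 1.65 to 2.52 with SAHA, a median of 2.12. All treated libraries were above all vehicle libraries, and the 5p share rose from 72.2% to 80.7% (log2 difference 0.70, SE 0.12, limma adjusted p = 0.00051). For miR-148b it was -5.64, -5.90, -5.38, -5.12 and -5.14 with vehicle and -4.95 to -4.54 with SAHA, a median of -4.72. The minor 5p arm went from 2.29% to 3.59% of the reads of this precursor (log2 difference 0.69, SE 0.12, limma adjusted p = 0.00051).

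miR-379 had a ratio of -0.18, 0.29, -0.10, 0.54 and 0.44 with vehicle and 0.54 to 1.42 with SAHA, a median of 0.88. The ranges met, with the lowest treated library, aged SAHA 1, at the level of the highest vehicle library (log2 difference 0.75, SE 0.16, limma adjusted p = 0.0013). For miR-222 the ratio was -6.84, -6.91, -6.98, -6.90 and -6.64 with vehicle and -6.67 to -6.22 with SAHA, and for miR-106b it was -0.80, -0.99, -0.88, -0.69 and -0.65 with vehicle and -0.51 to -0.06 with SAHA. miR-222 overlapped through aged SAHA 1 and miR-106b did not overlap, and the differences were 0.47 (SE 0.09, limma adjusted p = 0.00056) and 0.52 (SE 0.12, limma adjusted p = 0.0025). The 5p share of miR-106b went from 36.4% to 45.1%, with the 3p arm, miR-106b-3p, at 46.4 ± 3.46 CPM with vehicle and 42.4 ± 7.03 with SAHA.

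Of the 12 precursors with a higher ratio and neither arm called, miR-674 and miR-433 had the smallest p. miR-674, intergenic on chromosome 2 (chr2:117185127-117185226, plus strand), had a ratio of -2.74, -2.53, -2.67, -2.50 and -2.32 with vehicle and -2.22 to -1.90 with SAHA (log2 difference 0.51, SE 0.10, limma adjusted p = 0.00068). miR-433, next to miR-127 in the stretch antisense to Rtl1, had -4.53, -4.38, -4.21, -4.10 and -4.34 with vehicle and -4.04 to -3.63 with SAHA (log2 difference 0.51, SE 0.12, limma adjusted p = 0.0031). All treated libraries were above all vehicle libraries in both. miR-1839 (0.51), miR-485 (0.51) and miR-127 (0.32) complete the 11 precursors whose ratio stayed called in all 11 fits that left out a library and in all other settings tried. Of the other 11 higher ratios, miR-330 and miR-151 were lost without aged vehicle 1 (adjusted p 0.051 and 0.059) and miR-30e without aged vehicle 1 or 3 (up to 0.058). The ratios of miR-339, miR-144, miR-181c, miR-185, miR-136, miR-22, miR-148a and let-7b were lost in 3 to 9 of the 11 fits, in each case without aged vehicle 1 and without aged vehicle 3 (adjusted p up to 0.12). The lower ratio, of miR-673, was 1.66 ± 0.11 with vehicle and 1.36 ± 0.17 with SAHA (difference -0.30, SE 0.10, limma adjusted p = 0.032, exact permutation p = 0.015), and it was lost without vehicle library 1, 3 or 4 or SAHA library 2, 3 or 6 (adjusted p up to 0.094). The count of changed ratios was 11 without aged vehicle 1 and 13 without aged vehicle 3, in each case all higher.

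**Figure D3:**
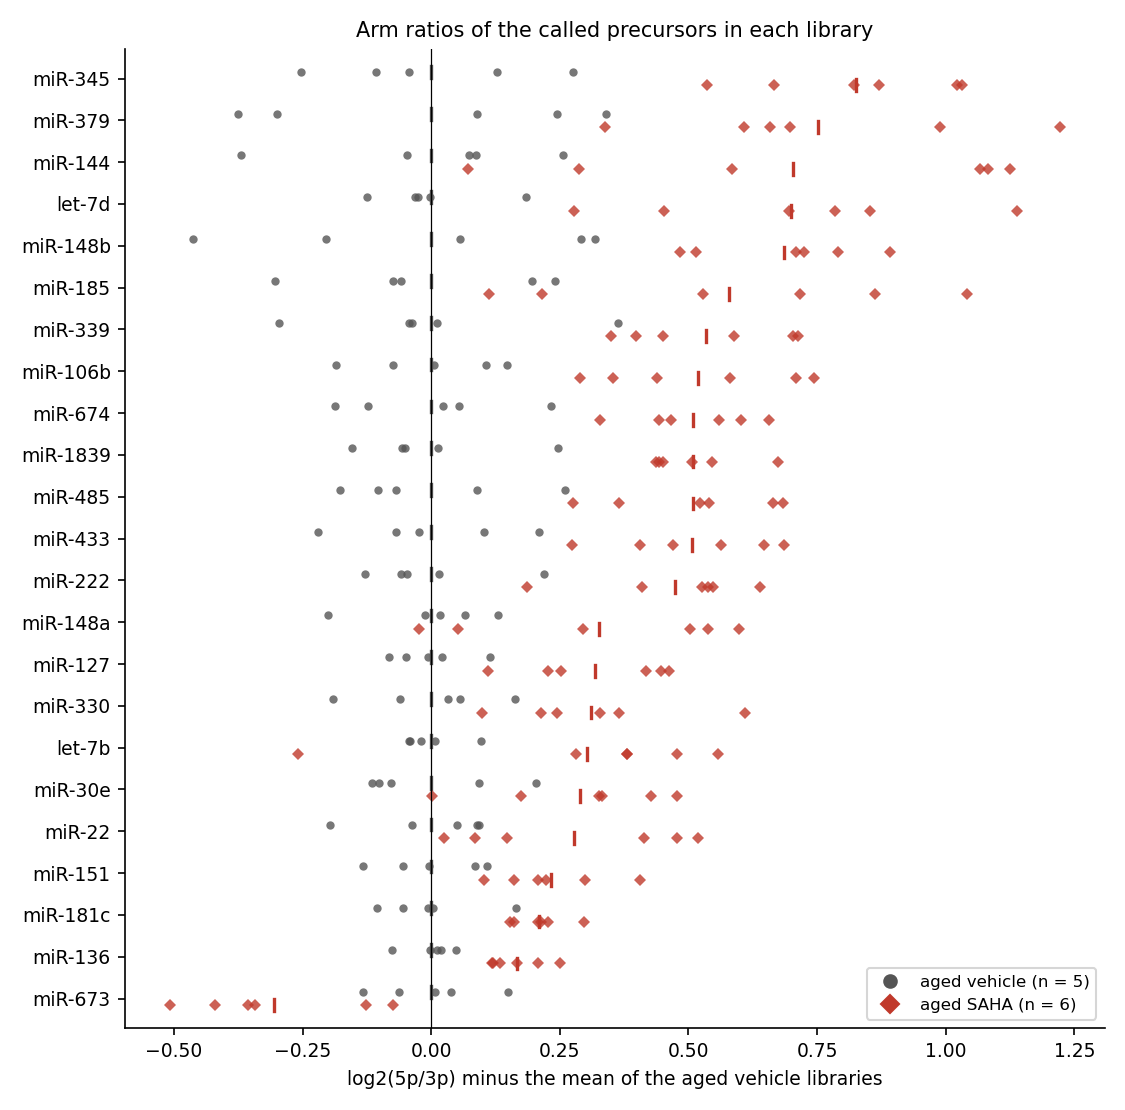
Each row is a precursor with a changed arm ratio, and the horizontal axis is log2(5p/3p) minus the mean of the 5 aged vehicle libraries. Circles are aged vehicle libraries, diamonds the 6 aged SAHA libraries and short bars the group means. The 22 higher ratios stand above miR-673, and aged SAHA 1 is the treated diamond left of 0 for let-7b.

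The same shift could be followed library by library. Over all 121 precursors, the median deviation from the vehicle mean was -0.01 to 0.03 in the vehicle libraries and 0.04 to 0.12 in the SAHA libraries, and it was -0.02 to 0.02 in the 8 young vehicle libraries. Over the 22, which were chosen on this contrast, it was -0.09 to 0.07 with vehicle and 0.28 to 0.55 with SAHA, and 0.01 to 0.33 in the young libraries, where young vehicle 6 had the highest value. Weighted by reads, 5p arms took 54.7% to 57.7% of arm-assigned counts with vehicle and 56.8% to 60.4% with SAHA. Without the precursors of miR-127 and miR-181a, the ranges were 58.9% to 59.7% and 57.3% to 61.5%, and both pairs of ranges overlapped. The mean GC content of the counted sequences was 46.8% to 47.3% with vehicle and 46.6% to 47.0% with SAHA, and its part in the ratios was not tested.

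Counts summed over all listed miRNAs with the same seed were called in 22 of 437 seed groups (5.03%), 8 higher (1.83%) and 14 lower (3.2%), by the same edgeR test. Of these 22 groups, 5 held no called miRNA, all of them higher. Each of the 5 was kept in at most 5 of the 11 fits that left out a library. They included miR-320-3p alone (edgeR adjusted p = 0.037), which stood just outside the threshold as a single miRNA. The sum adds something to the single miRNA for 8 of the 22 called miRNAs, those with another counted member. Of the others, 11 were alone under their seed in the sequences matched and 3 had no sequence matched, so that miR-301b-3p was not summed with its family members miR-130a-3p and miR-301a-3p. These 2 family members, far above miR-301b-3p in level, had 416 and 874 CPM with vehicle and 413 and 872 CPM with SAHA. Of the 8 sums, 3 were called and 5 were not. let-7d-5p made up 2.72% of the counts with the let-7 seed GAGGUAG, and that seed group had a log2 fold change of 0.02 (SE 0.05), with let-7a-5p at 7962 ± 435 CPM with vehicle and 8757 ± 782 with SAHA. miR-1193-3p made up 3.85% of its group (0.02, SE 0.09). miR-379-3p made up 32% of the group it forms with miR-411-3p, which had 342 ± 43.0 CPM with vehicle and 308 ± 36.2 with SAHA, and the sum was not called (-0.25, SE 0.12).

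For miR-106b-5p and miR-181c-5p the seed group pointed the same way as the miRNA without passing. The group with the seed AAAGUGC, in which miR-106b-5p had 5.46% of counts and miR-93-5p the most, had a log2 fold change of 0.23 (SE 0.08, edgeR adjusted p = 0.096). The group ACAUUCA, of which miR-181c-5p was 2.93% and miR-181a-5p the most abundant member, had 0.26 (SE 0.09, edgeR adjusted p = 0.084). miR-148b-5p shared its seed with miR-148a-5p, which was not called at 23.6 ± 1.61 against 22.3 ± 3.19 CPM, and their sum rose (0.34, SE 0.08, edgeR adjusted p = 0.024). miR-222-3p, 70.6% of its group with miR-221-3p, gave a fall of the sum (-0.31, SE 0.09, edgeR adjusted p = 0.046). The sum with miR-148a-5p was lost without vehicle library 1, 2 or 3 or SAHA library 6 (adjusted p up to 0.080), without a filter on low counts (0.073) and with only the compared libraries (0.089). The sum with miR-221-3p was lost without any of 7 libraries (adjusted p up to 0.099), with the size factors of DESeq2 (0.051), unscaled totals (0.087), no filter on low counts (0.082) and only the compared libraries (0.071). Of the 22 seed calls, 5 were kept in every fit that left out a library. These were the groups of miR-345-3p, miR-301b-3p, miR-485-3p, miR-128-3p and miR-673-5p, each of which holds that miRNA alone. Leaving out aged vehicle 1 gave 8 calls, aged vehicle 3 gave 6, aged vehicle 4 gave 10, aged SAHA 3 gave 12 and aged SAHA 6 gave 5. With either of the other scalings the calls were 4 higher and 12 lower.

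**Figure D4:**
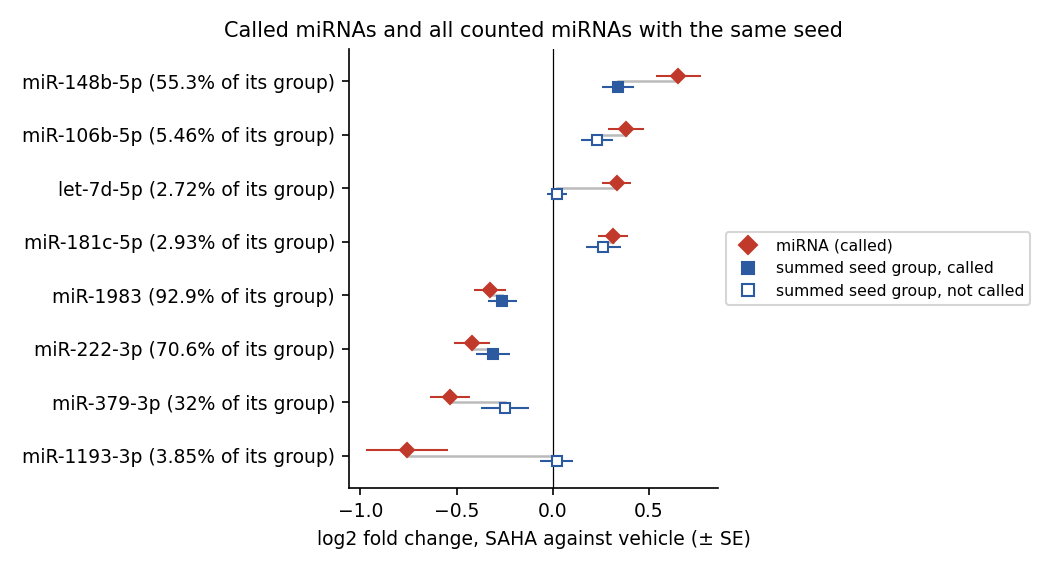
The called miRNAs that share their seed with another counted miRNA are shown by row with their share of the counts of the seed group, and the horizontal axis is the log2 fold change, SAHA against vehicle, with its standard error. Red diamonds are the miRNAs and blue squares the summed seed groups, filled where the sum was called. The sums for let-7d-5p and miR-1193-3p lie near 0.

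Lists of miRNAs known from cell types, processes, families and loci were read by their counts and medians beside the 509 tested, of which 261 had negative and 248 positive values. All 22 neuron-enriched miRNAs were tested, with 16 negative, 3 called lower (miR-128-3p, miR-153-5p and miR-9-3p), none higher, and a median of -0.08, where 3.14% of all tested were lower and 1.18% higher. miR-128-3p was the 1 call of this list with only the compared libraries, without aged vehicle 3 and without aged SAHA 6. The uncalled members included miR-128-2-5p (-0.32), miR-138-5p (-0.29), a regulator of dendritic spine size, and miR-153-3p (-0.20). Others lay near 0, such as miR-124-3p (-0.01) and miR-218-5p (-0.03), and 6 of the 22 were positive, the highest being miR-137-5p (0.13). The summed CPM of the 13 neuron markers (miR-124, miR-9, miR-128, miR-138 and miR-218) was 87424, 82867, 87706, 87022 and 84063 with vehicle and 70309 to 76380 with SAHA, a median of 73121. These groups did not overlap, but without miR-128-3p the sums were 48578 to 53388 with vehicle and 43838 to 51135 with SAHA, and they overlapped. Leaving out miR-9-5p as well gave 11699 to 12796 with vehicle and 10109 to 12990 with SAHA, again with overlap. Without aged SAHA 1 the neuron-enriched median was -0.03 with 3 lower, and without aged SAHA 1 and 3 it was -0.01 with 2 lower and 11 of 22 negative. The arms of miR-132 and miR-212, which neuronal activity induces, gave 4 tested, none called, and a median of -0.07, with miR-132-3p at -0.18. Of 28 tested miRNAs from the literature on synaptic plasticity and memory none was called, and the median was -0.01.

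Glial and vessel miRNAs moved with particular libraries. The endothelial and mural list had 10 of 11 tested members positive, none called, and a median of 0.31, with miR-143-3p, of smooth muscle, at 0.31, miR-10b-5p at 1.34 and miR-126-3p, of endothelium, at 0.11. Summed mural markers were 19411, 43074, 19526, 16743 and 18172 CPM in the vehicle libraries and 17342 to 50190 CPM with SAHA, a median of 20178. Aged vehicle 2, aged SAHA 1 and aged SAHA 3 held the 3 high values, 43074, 48127 and 50190. Without aged SAHA 1 and 3 the median of the list was -0.15, with 8 of 11 negative, miR-143-3p at -0.29 and miR-10b-5p at -0.28. The microglia and immune list had 10 of 12 positive, none called, and a median of 0.23, with miR-155-5p, of activated immune cells, at 0.87, miR-21-5p at 0.27 and miR-146a-5p at 0.15. Without aged SAHA 1 this median was 0.06, miR-146a-5p was at -0.03 and miR-150-5p was called lower. Without aged SAHA 1 and 3, miR-342-5p was called higher and miR-150-5p lower. Without aged SAHA 5, the treated library with the lowest miR-155-5p, miR-155-5p and miR-342-5p were called higher. In aged SAHA 1, miR-155-5p was at 23.1 CPM, against 3.84 to 11.1 in the other treated libraries and 4.14 to 7.19 with vehicle. Its log2 fold change was 0.40 to 1.03 with each library left out. The oligodendrocyte list had 5 of 6 positive, none called, and a median of 0.12, with miR-219-2-3p, of myelinating cells, at 0.44, and without aged SAHA 1 its median was 0.01. The part of these cell types in the calls was not tested.

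**Figure D5:**
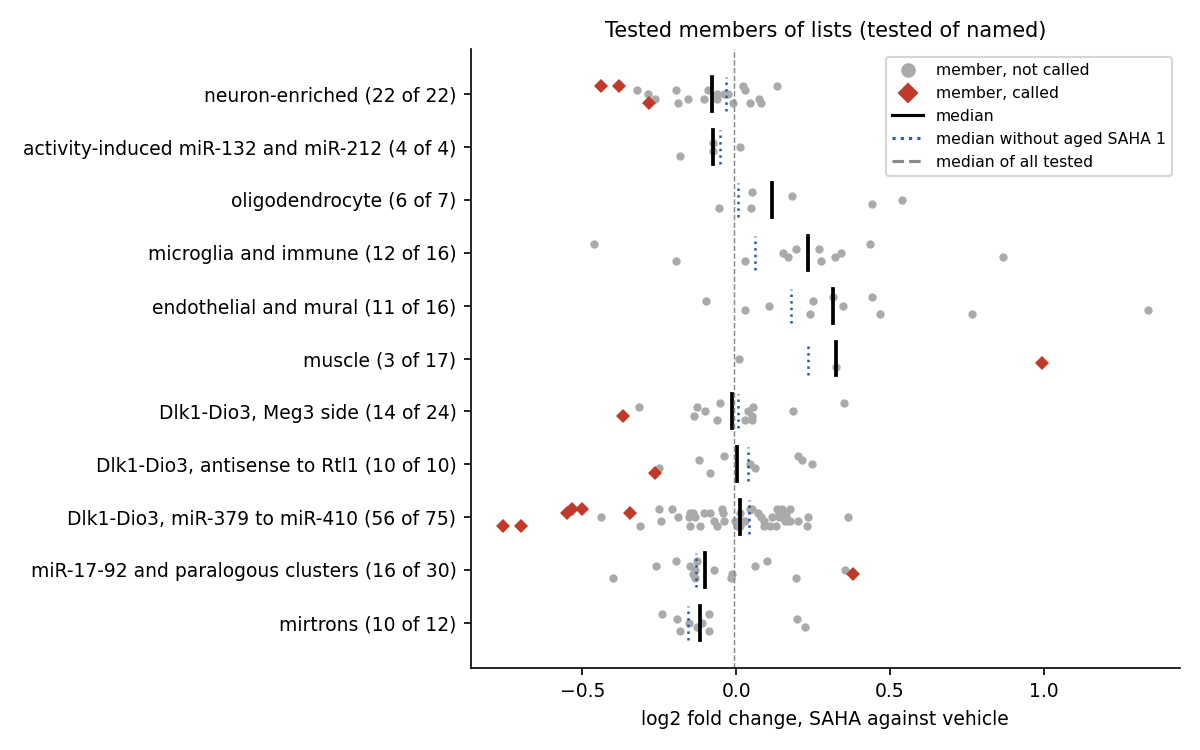
Each point is a tested member of a list, placed by its log2 fold change, SAHA against vehicle, with called members as red diamonds. Solid bars are list medians, dotted bars the medians without aged SAHA 1 and the dashed line the median of all tested. The endothelial, mural and microglial medians lie right of 0, and the calls of the Dlk1-Dio3 stretches lie left of medians near 0.

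Over all tested miRNAs 4.32% were called, and the families below held from 0 to 2 calls each, numbers too small to set any of them apart from that share. Their medians pool both arms. The let-7 family had 1 higher and 1 lower of 21 tested, both arms of let-7d, with a median of 0.02, and let-7f-5p, its most abundant member, was at -0.11. The miR-181 family had 1 higher of 8 (median 0.08), with miR-181b-5p at 0.15. In the miR-17-92 and paralogous clusters 11 of 16 were negative and 1 was higher (median -0.10), with miR-25-3p and miR-93-5p, of the same cluster as miR-106b, at -0.26 and 0.19 and both uncalled. The miR-130 and miR-301 family had 5 of 5 negative with 1 lower (median -0.03). Its uncalled members lay close to 0, from -0.05 (miR-130b-3p) to -0.004 (miR-301a-3p). miR-221 and miR-222 had 1 lower of 4, and the miR-148 and miR-152 family had 1 higher of 6. The noncanonical, Drosha-independent list gave 1 higher and 1 lower of 7, and mirtrons, which are spliced rather than cut out by Drosha, gave none of 10, with 8 negative and a median of -0.12. No call fell in the families of miR-29 (7 tested), miR-30 (13), miR-15 and miR-16 (8), miR-23, miR-27 and miR-24 (9), miR-99, miR-100 and miR-125 (11) or miR-26 (5), in the X-linked miR-322 to miR-450 cluster (6) or in the Sfmbt2 cluster (6). Both miR-99a-5p and miR-99b-5p were called lower without aged SAHA 1. In the miR-17-92 and paralogous clusters 1 member was called lower without aged SAHA 1, and 1 without aged SAHA 1 and 3. In the miR-148 and miR-152 family 1 member was called lower without aged SAHA 1 and 3. No call fell among the miRNAs of red blood cells (5 tested), of the choroid plexus and other ciliated cells (7), of the miR-200 family of epithelia (5) or of the miR-183 cluster of sensory cells (2), but miR-429-3p of the miR-200 family was called lower without aged SAHA 1 and without aged SAHA 1 and 3.

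The levels of 6 of the called miRNAs in young mice can be set beside these values, with the limit that the aged vehicle libraries serve in both differences. miR-181c-5p had 4631 to 6315 CPM in the 8 young vehicle libraries, where the aged vehicle libraries had 3355 to 4180.3 and the aged SAHA libraries 4370.3 to 5316. miR-148b-5p had 24.5 to 35.04 CPM in young, 15.8 to 25.9 in aged vehicle and 29.9 to 37.9 CPM in aged SAHA libraries. miR-106b-5p had 28.1 to 38.0, 25.6 to 27.8 and 28.6 to 38.2 CPM. The log2 difference of aged vehicle from young was -0.42 (SE 0.07) for miR-181c-5p, -0.39 (SE 0.11) for miR-148b-5p and -0.23 (SE 0.09) for miR-106b-5p, beside 0.31, 0.65 and 0.38 for SAHA against vehicle. miR-128-3p had 27161 to 39037 CPM in young libraries, which spanned the aged vehicle range, and let-7d-3p had 625.3 to 824. miR-345-3p had 31.7 to 44.3 CPM in young libraries, which overlapped the aged SAHA range through aged SAHA 1 alone. The ranges of young and aged SAHA libraries overlapped in all 6 of these miRNAs. The log2 difference of aged vehicle from young was 0.08 (SE 0.10) for miR-345-3p, 0.02 (SE 0.08) for let-7d-3p and -0.02 (SE 0.08) for miR-128-3p, beside -0.62, -0.37 and -0.44 for SAHA against vehicle. For the other rises it was -0.05 (SE 0.07, let-7d-5p), 0.01 (SE 0.08, miR-1839-5p) and -0.21 (SE 0.25, miR-1a-3p). Among the other falls it ran from -0.12 (SE 0.08, miR-1983) to 0.36 (SE 0.19, miR-1193-3p), with miR-222-3p at 0.23 (SE 0.09).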

How the data were processed

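CA1 small RNA libraries were made with TruSeq reagents, per the labels' protocols. The authors deposited raw read counts for each mature miRNA name. CASAVA 1.8.2, cutadapt, STAR, HTSeq and mm10 are named, without settings, in the submitters' processing notes. The sources used here do not name a miRNA annotation release. Of 1148 names, filterByExpr (minimum count 10, minimum total 15) kept 509. All 19 libraries entered 1 edgeR 4.0.16 fit (R 4.3.3, TMM, quasi-likelihood, a mean for each group), in which the common biological coefficient of variation was 0.152. The threshold was a Benjamini-Hochberg adjusted p of 0.05.

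Arm ratios were log2 of (5p count + 0.5) over (3p count + 0.5), tested with limma 3.58.1 and, where given, a two-sided exact permutation test over the 11 libraries. Seed groups were counts summed over names sharing bases 2 to 8. A RefSeq mature sequence was matched for 891 names, and the 257 others stayed alone. Hosts came from GENCODE M21. Named miRNAs are up to 15 calls per direction, the next by p up to 25, their other arms and seed partners, up to 4 further members of each list by p, and the 8 most abundant; arm ratios and seed groups are up to 8 per direction. miR-1193-3p, miR-126-3p, miR-143-3p, miR-146a-5p, the arm ratios beyond 8 and the members called only in an alternative were named outside this rule, after their values were seen. The members and the 30 lists were chosen with earlier results of these data known. Alternatives were other scalings and filters, DESeq2 1.42.0, limma-voom, only the 11 libraries, libraries left out and a replicate block. Changes were simulated in a far larger share of the 509 miRNAs than was called here. In that setting edgeR recovered 44.0% at 1.25-fold, 77.8% at 1.5-fold and 93.3% at 2-fold, and 3.14% of its calls were false. These rates need not hold for the contrast between the groups.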

Additional observations from a re-analysis of the deposited data

Results flagged for a closer look

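Among 120 groups of libraries checked for 1 value far from the rest, 5 held such a value, where chance alone gives about 1 in 20. The root mean square deviation of aged SAHA 1 from its group was 0.381, against 0.243 to 0.293 in the other 5 SAHA libraries. In the same library miR-24-2-5p was at 148.5 CPM, against 95.5 to 108 CPM, and the log2 5p/3p ratio of let-7b was 3.56, against 4.10 to 4.38. miR-153-5p was at 46.9 CPM in aged SAHA 6, against 65.7 to 75.5 CPM in the other SAHA libraries. miR-26a-5p was at 68231 CPM in aged SAHA 3, against 77402 to 81925 CPM.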

How the results depend on the processing

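Against 22 called miRNAs, DESeq2 called 39, limma-voom 46 and the fit without aged SAHA 1 and young vehicle 6 gave 37, each holding at least 21 of the 22. Leaving out each library gave 11 to 33. Against 23 changed arm ratios, leaving out each library gave 11 to 30 and the other settings 16 to 31. Against 22 called seed groups, DESeq2 gave 36, no low-count filter 10, only the compared libraries 11 and leaving out each library 5 to 29. Same-numbered libraries of the 2 groups had correlations of -0.20 to 0.11 of their deviations, so the numbers were not taken as pairs. With the replicate number as a block, 15 miRNAs (14 of the 22), 31 arm ratios (25 higher and 6 lower) and 6 seed groups were called.

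The sign of several uncalled differences turned. miR-148b-3p, at -0.01, was 0.0027 with only the compared libraries, 0.0041 without the 3 most abundant miRNAs, 0.044 without aged SAHA 1 and 3, and -0.059 to 0.027 with each library left out. miR-146a-5p, at 0.15, was -0.033 without aged SAHA 1 and young vehicle 6, and -0.032 to 0.24 with each library left out, the lowest without aged SAHA 1. Without aged SAHA 1 and 3, miR-143-3p was -0.29, miR-10b-5p -0.28 and miR-221-3p 0.041. No called miRNA, arm ratio or seed group changed sign in any setting. The seed sum of let-7d-5p, at 0.02, was -0.022 to 0.041 with each library left out, and that of miR-1193-3p, at 0.02, was -0.031 to 0.063, and -0.00099 with only the compared libraries. miR-1a-3p, miR-539-5p and miR-1193-3p had under 13 CPM in each library, and the part of depth in their calls was not tested.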
